A study of Mus musculus with 10 samples.

Results

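The 9 genes described here encode transcription factors of the primitive streak and its mesoderm and endoderm offspring: Eomes, Mixl1, Mesp1, Tbx6, Msgn1, T, Evx1, Cdx2 and Sp5. They were chosen by name, with earlier results of these data known, from 21887 protein-coding genes with a position in the gene table. The measurement was the position of OTX2, a homeodomain transcription factor, read by CUT&RUN, in which an antibody directs a nuclease to its target so that the DNA beside it is cut free and sequenced. A peak, a stretch where such fragments pile up, was counted for a gene when its centre lay within 50 kb of the gene on the mouse build mm10. By this rule 10 of 6319 peaks belonged to the 9 genes in epiblast stem cells (EpiSCs) and 59 of 42711 in definitive endoderm (DE). The peak just inside the limit was a DE peak 47.0 kb from Tbx6, and the one just outside was a DE peak 50.9 kb from Mesp1, inside Anpep.

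The cells were a BL6/129 hybrid line labelled 7H OTX2-dTAG-EGFP, in which OTX2 carries an HA epitope. EpiSCs, a culture model of the epiblast before gastrulation, were kept with Activin A (20 ng/ml), NVP (175 nM) and FGF2 (12.5 ng/ml). For DE they were given CHIR (3 µM) with Activin A (40 ng/ml) over 16 h and LDN (100 nM) with more Activin A (100 ng/ml) over the next 24 h, and live cells were sorted. Each state had 2 anti-HA samples of 500000 cells, which the authors had combined into 1 peak list per state. The controls used here were 3 IgG samples of tagged EpiSCs and 1 anti-HA sample of DE from the parental line labelled 5.8. An IgG sample of tagged DE and an IgG sample of parental DE were also made and were not analysed here. The lists give positions only, with no height or read depth, so no value below has a replicate spread and no difference between the states could be tested. The DE list was also several times longer than the EpiSC list, and a longer list and more binding cannot be told apart here. No expression data were used here, so the labelled cell states were not checked against marker genes.

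The primitive streak is where epiblast cells leave the epithelium during gastrulation and become mesoderm or endoderm. Nodal signalling, which Activin A mimics in culture, favours the anterior streak and definitive endoderm and acts through Eomes and Mixl1. WNT signalling maintains the posterior streak and tail-end progenitors, where T, Cdx2, Evx1 and Sp5 are active. Mesp1, Tbx6 and Msgn1 act in the formation of mesoderm. OTX2 itself is known for its roles in the epiblast and in anterior tissues.

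All 9 genes had at least 1 OTX2 peak within 50 kb in DE, whereas 3 of 9 (Eomes, T and Sp5) had one in EpiSCs. Over all protein-coding genes, 82.8% had a DE peak and 40.8% an EpiSC peak within that distance, so having a peak in DE was common and the EpiSC count of 3 lay slightly under the share of genes in general. The number of DE peaks per gene ranged from 4 at Mesp1 to 9 at Eomes and Sp5, with a median of 7, against a median of 3 over all protein-coding genes (quartiles 1 and 6). In EpiSCs the numbers were 5 at Eomes, 3 at Sp5, 2 at T and 0 at the other genes, against a median of 0 (quartiles 0 and 1). The members are short genes of at most 8074 bp, which makes their windows small. Among the 6953 protein-coding genes no longer than that, a comparison added after the data were seen, 69.5% had a DE peak and 34.9% an EpiSC peak, with medians of 2 and 0 peaks.

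**Figure D1:**
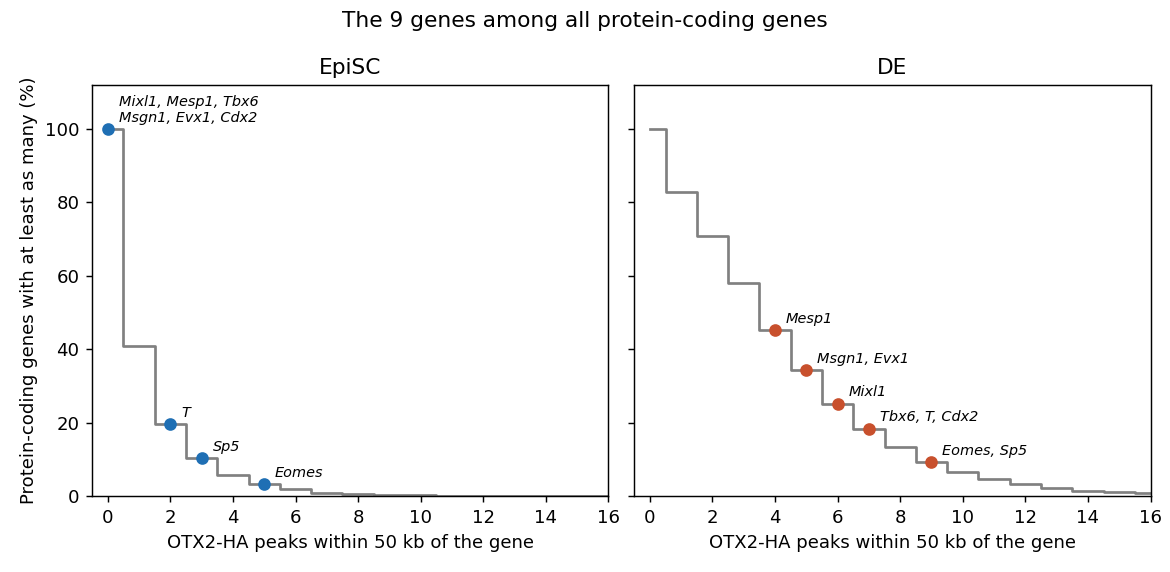
Share of all 21887 protein-coding genes (percent, vertical axis) with at least a given number of OTX2-HA peaks within 50 kb (horizontal axis) in the EpiSC and DE lists, shown as grey steps, with the 9 genes as points. All 9 points lie at 4 or more peaks in DE, and 6 of them lie at 0 in EpiSC.

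Eomes had the most EpiSC peaks of the 9 genes. Its 5 are a number that 3.27% of protein-coding genes reach or pass, and its 9 DE peaks are reached or passed by 9.33%. Sp5 had the same number of DE peaks and 3 EpiSC peaks, which 10.3% of genes reach or pass. The 7 DE peaks of T, Tbx6 and Cdx2 are reached by 18.4% of genes, the 6 of Mixl1 by 25.2%, the 5 of Msgn1 and Evx1 by 34.4%, and the 4 of Mesp1 by 45.2%. Neighbours in this order differ by 1 or 2 peaks, and with 1 list per state no error can be put on such a step.

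**Figure D2:**
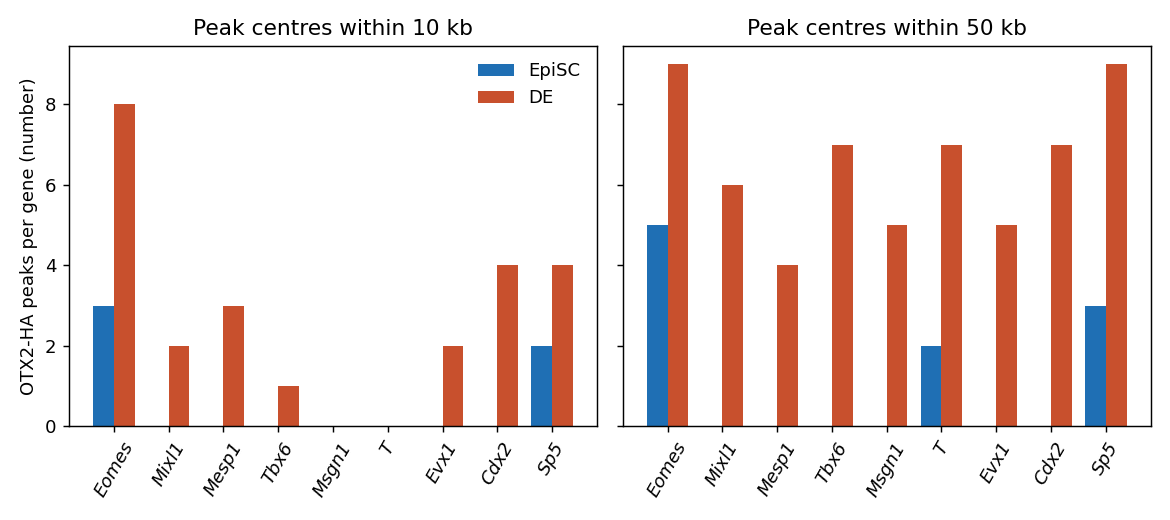
Number of OTX2-HA peaks per gene (vertical axis) with the centre within 10 kb (left) or 50 kb (right) of each of the 9 genes, in EpiSC (blue) and DE (orange), 1 pooled list per state. Eomes has the tallest bars within 10 kb, with 3 EpiSC and 8 DE peaks, and T and Msgn1 have none there in either state.

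The members also differed in how close the peaks lay. Within 10 kb, 7 of 9 genes had a DE peak, beside 63.9% of all protein-coding genes, and 2 of 9 had an EpiSC peak, beside 23.6%. Eomes had 8 of its 9 DE peaks inside that distance, Sp5 and Cdx2 4 each, Mesp1 3, Mixl1 and Evx1 2 each, and Tbx6 1. T and Msgn1 had none, and their closest DE peaks were 18.5 kb and 11.7 kb away.

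**Figure D3:**
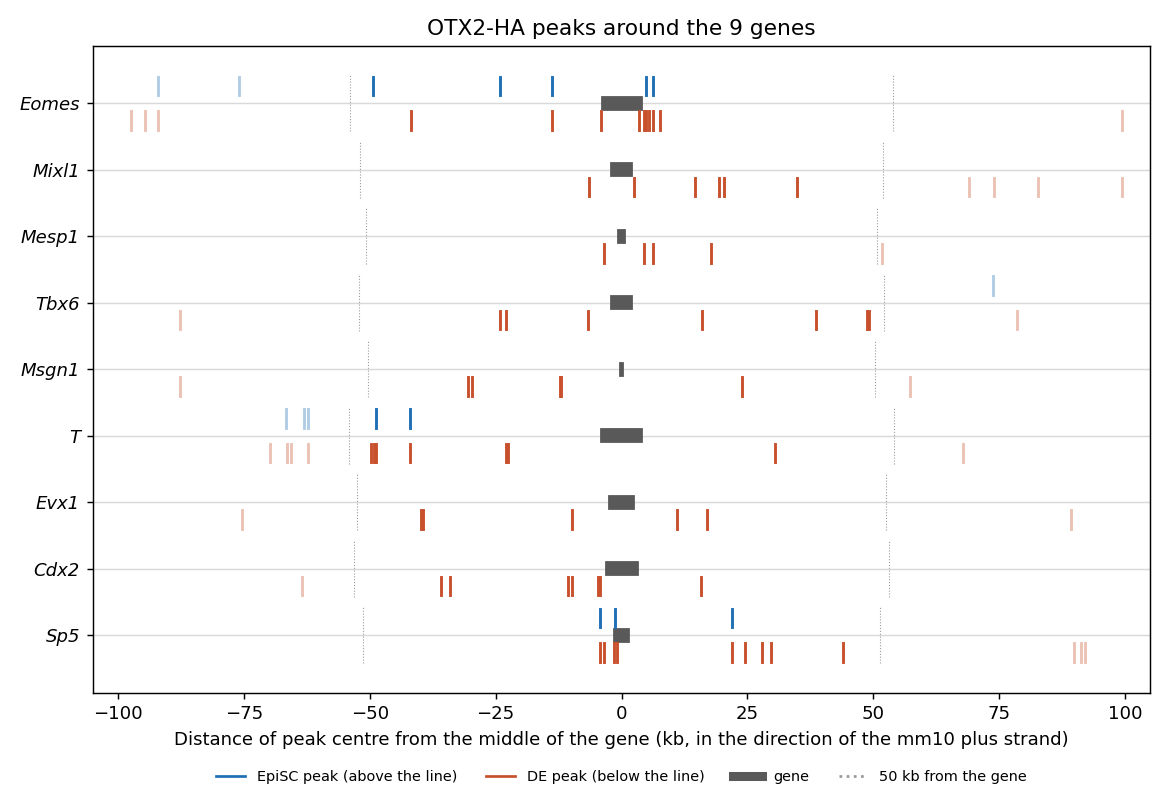
Position of each OTX2-HA peak centre relative to the middle of the gene (kb, horizontal axis, in the direction of the mm10 plus strand), with 1 line per gene, EpiSC peaks above it and DE peaks below it. Peaks within 50 kb are in full colour and those up to 100 kb in pale colour; the peaks of Eomes gather at its right end, while those of T lie mostly far to its left.

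Eomes is a T-box factor that is needed for definitive endoderm and for cells to leave the streak. It lies on the plus strand at chr9:118478186-118486132. In DE its peaks fell into a dense group at the 3′ end and a few others. The group was 6 peaks between 118485495 and 118489902, a span of 4408 bp, and these were 146 to 395 bp wide. The first of them, at 118485495 to 118485640, was centred inside Eomes, and the other 5 were centred inside Gm33460, a long non-coding RNA gene beside it. The widest, 395 bp at 118486820 to 118487214, and its neighbour of 392 bp at 118487506 to 118487897 were among the widest 3.39% and 3.48% of DE peaks.

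EpiSCs had 2 peaks in this 3′ group, at 118486876 to 118487118 (243 bp) and 118488422 to 118488570 (149 bp). Each overlapped a wider DE peak, of 395 bp and 200 bp. A further overlapping pair lay upstream, 9.85 kb from the gene, with 80 bp in EpiSCs and 122 bp in DE. The other 2 EpiSC peaks, at 118432752 to 118433085 (334 bp, 45.3 kb upstream) and 118457975 to 118458054 (80 bp, 20.2 kb upstream), overlapped no DE peak. The DE list had 1 far upstream peak of its own, 189 bp wide and 37.8 kb away. Within 50 kb, Eomes was thus the single member with EpiSC peaks that were missing from the DE list. Of its 5 EpiSC sites, 3 were present in both. Only 3 members had any EpiSC peak at that distance, and 78.8% of the whole EpiSC list overlapped a DE peak. Farther out, T and Tbx6 also had EpiSC peaks that overlapped no DE peak.

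The start of Eomes was covered in DE and not in EpiSCs. The DE peak at 118477999 to 118478210 (212 bp) overlaps the promoter window, defined as 250 bases before to 50 after the transcript start. The letters of the promoter that this peak covers, taken from the RefSeq promoter table for GRCm38.p6 and ending at the base before that table's start, are given here because they are the part of the gene's own promoter that was marked after differentiation. They are chr9:118477999-118478188, plus strand. The promoter table starts the Eomes transcript at 118478189, 3 bp after the start in the gene table (118478186), so the last 3 letters lie inside the gene as the gene table has it.
Eomes: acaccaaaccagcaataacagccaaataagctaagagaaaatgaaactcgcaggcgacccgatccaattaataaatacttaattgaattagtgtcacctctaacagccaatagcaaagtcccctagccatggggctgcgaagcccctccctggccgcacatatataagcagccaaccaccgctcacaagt
No capitals appear, because none of 3 strings searched on both strands was found: TAATC, a shorter form of the site TAATCC that OTX2 and related homeodomain proteins prefer, and CTTTGAT and CTTTGAA, which match sites of the LEF/TCF factors of the WNT pathway. TAATCC contains TAATC, so it is absent as well.

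Mixl1 encodes a paired-type homeodomain factor of the streak and of forming endoderm. It lies at chr1:180693043-180697034, and the promoter table held no entry for it. No EpiSC peak lay within 50 kb, or within 100 kb. The 6 DE peaks were 82 to 245 bp wide. With no EpiSC peak in this window none of them could be shared, and 11.7% of the whole DE list overlapped an EpiSC peak. The widest, at 180697404 to 180697648, was also the closest, 492 bp beyond the right end of the gene. For 2 of the 6 Mixl1 was the nearest protein-coding gene; of the other 4, 1 was nearest to Lin9, inside which it lay, and 3 were nearest to Acbd3.

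The mesoderm genes Mesp1, Tbx6 and Msgn1 had no EpiSC peak within 50 kb. Together they had 16 DE peaks, with a median width of 112.5 bp. With no EpiSC peak in these windows, none of the 16 could be shared.

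Mesp1 starts the programme of early cardiac and cranial mesoderm. It lies on the minus strand at chr7:79792241-79793590. Its 4 DE peaks were at 79789333 to 79789536 (204 bp, 2.81 kb downstream), 79797280 to 79797386 (107 bp, 3.74 kb upstream), 79799133 to 79799283 (151 bp, 5.62 kb upstream) and 79810682 to 79810766 (85 bp, 17.1 kb upstream). The last was over the promoter window of Mesp2, the neighbouring gene that acts in segmenting mesoderm, and Mesp1 was the nearest protein-coding gene for the other 3.

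Tbx6 directs progenitors to paraxial mesoderm rather than neural tissue. It lies at chr7:126781483-126785548 in a gene-dense stretch, and its 7 DE peaks were 65 to 297 bp wide. None of the 7 had Tbx6 as the nearest protein-coding gene. The closest and widest, at 126776675 to 126776971, was 4.66 kb from Tbx6 and over the promoter window of Ypel3. The others were nearest to Mapk3, Aldoa, Tlcd3b and 4930451I11Rik. The DE count at Tbx6 is therefore one of its neighbourhood.

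Msgn1 is a bHLH factor of presomitic mesoderm and the shortest gene of the set at 567 bp (chr12:11208382-11208948). Its 5 DE peaks were 71 to 189 bp wide. A pair at 11196336 to 11196524 (189 bp) and 11196627 to 11196806 (180 bp) was closest, 11952 and 11666 bp downstream, inside the long non-coding RNA gene 9530020I12Rik. The other 3 were nearest to Kcns3 or Gen1.

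T, also named Brachyury or Tbxt, is the T-box factor that marks the streak and notochord. It lies on the plus strand at chr17:8434423-8442496. No peak of either state lay within 10 kb. Of the 7 DE peaks, 6 were upstream, from 18.5 to 45.8 kb, and all 6 were centred inside the neighbouring gene T2. The seventh, 64 bp wide, was 26.4 kb downstream. Both EpiSC peaks were upstream and inside T2 too, at 8389553 to 8389711 (159 bp, 44.8 kb) and 8396369 to 8396588 (220 bp, 37.9 kb). Each overlapped a DE peak, of 212 bp and of 76 bp. T was the nearest protein-coding gene for 0 of the EpiSC peaks and for 1 of the 7 DE peaks.

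The first of these shared sites lies just before the start of Gm16702, a long non-coding RNA gene on the minus strand, and is the single EpiSC site of the set whose letters the promoter table holds in full. They are chr17:8389553-8389711, minus strand.
Gm16702: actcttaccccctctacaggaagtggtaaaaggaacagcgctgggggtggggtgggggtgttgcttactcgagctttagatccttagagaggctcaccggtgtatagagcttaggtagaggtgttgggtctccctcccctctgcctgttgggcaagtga
None of the searched strings occurred in these 159 bases, so no capitals appear.

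Evx1 is a homeodomain factor of the posterior streak, at chr6:52313498-52318389 beside the Hoxa cluster. It had 5 DE peaks of 107 to 385 bp and no EpiSC peak, so none of the 5 could be shared. Evx1 was the nearest protein-coding gene for 3: one 7.41 kb upstream (166 bp) and others 8.63 kb (195 bp) and 14.4 kb (385 bp) downstream. The peak of 385 bp, at 52332630 to 52333014, was among the widest 3.72% of the DE list. The other 2 were nearest to Hoxa13.

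Cdx2 patterns the posterior body and, later, the intestinal endoderm. It lies on the minus strand at chr5:147300900-147307249. It had no EpiSC peak, and its 7 DE peaks were narrow, at 70 to 177 bp with a median of 94 bp. The 4 nearest to Cdx2 were all downstream, between 1.1 and 7.54 kb from the gene. The widest, 177 bp at 147269956 to 147270132, was over the promoter window of Pdx1, a pancreas and duodenum factor, and not near Cdx2 itself.

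Sp5 is a zinc-finger factor induced directly by WNT signalling. It lies on the plus strand at chr2:70474923-70477726 and had the widest DE peaks of the set. These were 568 bp at 70471802 to 70472369, 543 bp at 70474599 to 70475141 and 454 bp at 70472598 to 70473051. They are among the widest 0.604%, 0.766% and 1.82% of the DE list. The peak of 543 bp covers the gene's start, and the other pair lies 2.1 to 2.84 kb upstream. A narrower peak of 86 bp was inside the gene, and 5 more lay 20.6 to 42.6 kb downstream, inside the long non-coding RNA gene Gad1os.

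All 3 EpiSC peaks of Sp5 overlapped a DE peak. They were at 70472012 to 70472139 (128 bp, 2.85 kb upstream), 70474978 to 70475098 (121 bp, inside the gene just after its start) and 70498215 to 70498321 (107 bp, 20.5 kb downstream). In DE the same sites were 568, 543 and 264 bp wide, which is 4.44, 4.49 and 2.47 times the EpiSC width. The promoter that the DE peak covers whole, chr2:70474673-70474922 on the plus strand, is printed as the member promoter with the widest peak.
Sp5: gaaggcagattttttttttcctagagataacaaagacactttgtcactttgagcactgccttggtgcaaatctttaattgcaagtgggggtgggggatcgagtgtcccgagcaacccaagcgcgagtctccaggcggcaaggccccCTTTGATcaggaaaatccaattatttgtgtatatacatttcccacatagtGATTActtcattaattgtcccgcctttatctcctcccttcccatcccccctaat
Capitals mark CTTTGAT, which begins at position -104 counted from the transcript start, and GATTA, the reverse complement of TAATC, which begins at position -54. The EpiSC peak begins after this stretch and does not include either string.

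Promoter windows of the members were covered at about the general rate in DE. Of the 8 members with a promoter entry, 2 (Eomes and Sp5) had a DE peak over the window, beside 24.7% of windows of protein-coding genes, and 0 had an EpiSC peak over it, beside 8.77%. This 0 turns on where the window ends at Sp5, whose EpiSC peak at 70474978 to 70475098 starts 6 bp past the window's last base at 70474972. At the other 7 the nearest EpiSC peak was 8638 bp or more from the window. In the 250 bases before the start, TAATC occurred on either strand in 3 of 8 (T, Cdx2 and Sp5), against 19.8% of all 32851 windows in the table, and TAATCC in 0 of 8, against 6.25%. CTTTGAT occurred in 3 of 8 (Mesp1, Msgn1 and Sp5), against 3.21%, and CTTTGAA in 3 of 8 (Mesp1, Msgn1 and T), against 4.46%. These are matches of letters, and a match is not a binding site.

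The shares of sites common to both states had intervals that include the shares of the whole lists. With an overlap of 1 bp or more counted, 8 of 10 EpiSC peaks were shared (80.0%, exact 95% Clopper-Pearson interval 44.4 to 97.5%), beside 78.8% of the EpiSC list. Of the 59 DE peaks 8 overlapped an EpiSC peak (13.6%, 6.04 to 25%), beside 11.7% of the DE list, and 51 did not. The intervals cover counting error only, and peaks beside 1 gene are not independent. The shared sites were at Eomes (3), Sp5 (3) and T (2). Shared DE peaks had a median width of 238 bp and the others 140 bp, and the same medians over the whole DE list were 224 and 129 bp.

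At 7 of the 8 shared sites the DE peak was the wider, the exception being the site 37.9 kb upstream of T. Over all shared EpiSC peaks the DE partner was wider in 78.8%. The ratio of DE to EpiSC width had a median of 1.57 over the 8 sites and 1.4 over all. The sites at Sp5, with ratios up to 4.49, were the largest of the 8.

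**Figure D4:**
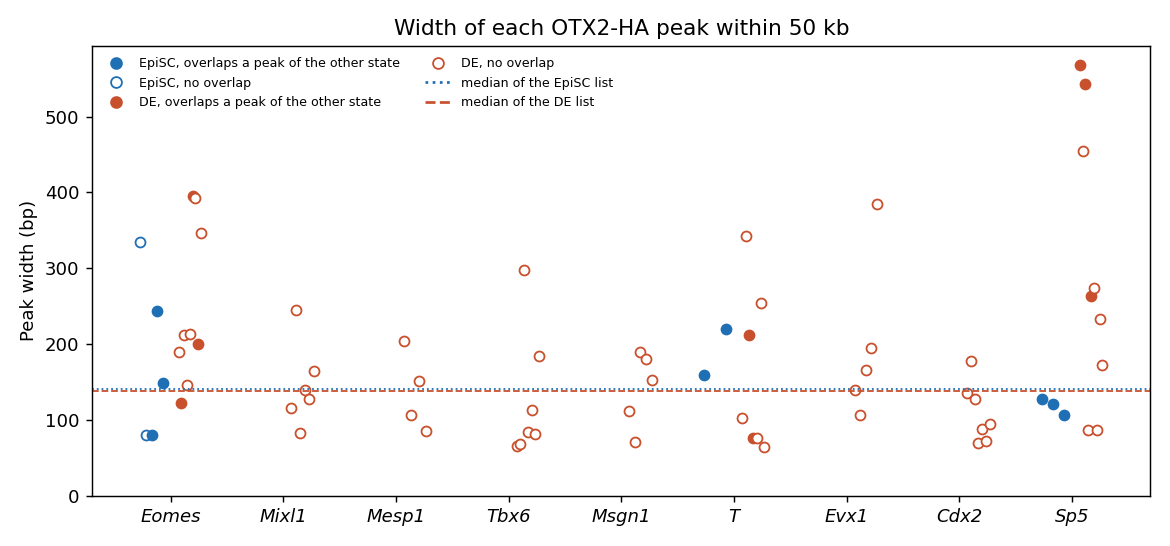
Width in bp (vertical axis) of each OTX2-HA peak within 50 kb of the 9 genes, in EpiSC (blue) and DE (orange), filled where the peak overlaps one of the other state. Lines mark the median of each whole list, 141 bp in EpiSC and 138 bp in DE; the 3 highest points are DE peaks of Sp5.

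Early streak and endoderm genes were set beside mesoderm and posterior genes. In EpiSCs, Eomes and Mixl1 had 5 peaks between them, all at Eomes, and the other 7 genes also had 5, all at T and Sp5. The median per gene was 2.5 against 0. In DE the 2 early genes had 15 peaks and the other 7 had 44, with medians of 7.5 and 7 per gene and ranges of 6 to 9 and 4 to 9. The DE ranges overlapped fully, and the EpiSC difference came from Eomes. With 2 genes against 7 no test was made.

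By role, the 4 posterior genes had 28 DE peaks and 5 EpiSC peaks, and the 3 mesoderm genes had 16 and 0. Within 10 kb the posterior genes had 10 DE peaks, the mesoderm genes 4 and the 2 early genes 10. Thus 8 of the 10 close peaks of the early genes belonged to Eomes.

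The lists differ in length, so the DE list was also limited to its 6319 widest peaks, the number in the EpiSC list. This kept DE peaks of 259 bp or more, whereas EpiSC peaks of every width stayed. Width was used because the lists hold no score. It is not a measure of binding strength, and the cut favours genes with wide peaks by construction. Of these widest DE peaks, 11 lay within 50 kb of the members: 5 at Sp5, 3 at Eomes and 1 each at Tbx6, T and Evx1. Thus 5 of 9 members had such a peak, beside 34.8% of protein-coding genes. Mixl1, Mesp1, Msgn1 and Cdx2 had none.

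The authors' deposited table names a nearest gene for each peak and gives smaller counts. In the authors' deposited table for EpiSCs, 2 of the 9 genes were named, Eomes and Sp5 with 2 peaks each, beside 15.3% of protein-coding gene symbols. In the authors' deposited table for DE, 8 of 9 were named, all but Tbx6, beside 50.4%. There the authors' deposited table gave 7 peaks to Eomes, 4 to Sp5, 3 to T, 2 each to Mesp1, Msgn1 and Cdx2, and 1 each to Mixl1 and Evx1. Eomes and Sp5 thus led under that assignment as well.

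Other genes of the same programme were counted from lists, to be read beside the 40.8% of protein-coding genes with an EpiSC peak, the 82.8% with a DE peak and the DE median of 3 peaks. Of 10 streak signals and anterior streak genes, 7 had an EpiSC peak and 10 a DE peak within 50 kb, with a DE median of 7 peaks. Nodal, the ligand that induces the streak, and its co-receptor gene Tdgf1 each had 4 EpiSC and 6 DE peaks. Lhx1, an anterior streak factor, had 0 and 9. Of 14 further mesoderm genes 4 had an EpiSC peak and 14 a DE peak, with a DE median of 5.5. Hes7, an oscillating factor of the segmentation clock, had 7 and 10, the highest EpiSC number of the 34 listed genes. Of 10 further posterior genes 5 had an EpiSC peak and 10 a DE peak, with a DE median of 3.5. Among them Nkx1-2, which marks tail-end progenitors, had 3 and 8, and Hoxb1 had 1 and 11. At the low end, Cdx4 and Sp8 had 0 and 1 each. Within 10 kb Hes7 had 2 EpiSC and 2 DE peaks, Nkx1-2 had 0 and 0, and Hoxb1 had 1 and 4.

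Between 50 and 100 kb every member had at least 1 further DE peak, and Eomes, T and Tbx6 also had EpiSC peaks. Of all protein-coding genes 76.5% had a DE peak and 31.6% an EpiSC peak in this zone, so a DE peak there is common among genes. Upstream of Eomes, 3 DE peaks of 231 to 275 bp lay between 88.0 and 93.4 kb from the gene, and 1 of them, at 118390037 to 118390298, overlapped an EpiSC peak of 189 bp. The nearest protein-coding gene of all 3 was Eomes. Upstream of T, between 58.2 and 65.7 kb and inside T2, there were 3 EpiSC and 4 DE peaks, and 2 of those in EpiSC were shared. Eomes had 1 more EpiSC peak at 71.9 kb and 1 more DE peak at 95.3 kb, and T had 1 more DE peak at 63.7 kb on its other side. Tbx6 had 1 EpiSC peak in this zone, inside Ino80e, and 2 DE peaks. Mixl1 had 4 DE peaks, from 67.1 to 97.3 kb, and Sp5 had 3, from 88.5 to 90.6 kb and inside Gad1. Msgn1 and Evx1 had 2 DE peaks each, and Mesp1 and Cdx2 had 1 each. Sites shared by both states were seen here at Eomes and T only.

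No control peak lay near these genes. None of the peaks of the 3 IgG samples (202, 149 and 200 peaks) or of the parental anti-HA sample (14 peaks) lay within 50 kb of a member, and none overlapped a member's peak. In the whole lists 50 of 6319 EpiSC peaks and 35 of 42711 DE peaks overlapped a control peak, so a count of 0 among 10 and 59 peaks says little about these genes. No IgG list of DE cells was used here.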

How the data were processed

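Positions of HA-tagged OTX2 in EpiSC and DE were taken from 1 peak list per state, which the authors had made from 2 anti-HA samples each and merged over 50 bp, per the file names. Per the submitters' processing notes the build was mm10 and the tools included Bowtie2 2.3.5.1, SAMtools 1.14, Picard 2.26.10, bedtools 2.30 and MACS2 2.2.6. The threshold and control behind the lists are not given in the sources used here. The deposited lists hold coordinates and the authors' nearest gene. Columns on differentially expressed genes were not used. Labels of 2 other samples mention DE HA output: EpiSC HA replicate 2 and IgG of tagged DE. These mentions were taken for errors, which the lists themselves cannot settle, and the DE list was treated as coming from DE anti-HA samples alone. Every interval of IgG replicate 2 was also in replicate 3 (149 of 149), so these are not independent.

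Genes and promoters came from RefSeq tables for GRCm38.p6, which has the coordinates of mm10. A peak counted when its centre lay within 50 kb of the closer gene end, or inside the gene. Peaks were shared when they overlapped by at least 1 bp. Intervals are exact 95% Clopper-Pearson intervals. Python 3.11.15, pandas 2.3.3, numpy 2.4.6 and scipy 1.17.1 were used, and the counting was tested on simulated data. Alternatives changed the distance, the assignment, the overlap and the lists. No test was planned or made, as replicates were pooled. All 9 members were named, with neighbours that share their peaks. Genes most like Eomes and Mixl1 were those with the smallest summed difference in EpiSC, DE and shared EpiSC peak number, up to 5 each; where more tied, their number is given. The members and lists were chosen with earlier results of these data known.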

Additional observations from a re-analysis of the deposited data

How the results depend on the processing

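No paired analysis was possible because each state has a single combined HA list, which also means that HA replicates could not be left out in turn. Every IgG list had 0 peaks at the members, so leaving out an IgG replicate, added after the data were seen, could give no other value and tests nothing. Of 87 alternative values of the summary counts, 59 stayed within 1.5 times and 28 moved further. Part of the 59 could not have moved, so their number is no measure of stability. No member peak overlapped a control peak, so leaving out such peaks changed nothing. Cutting the DE list to its widest peaks left the number of EpiSC peaks as it was. So did a common smallest width of 78 bp, which is the EpiSC minimum. Distance moved counts by its construction. Within 10 kb there were 5 EpiSC and 24 DE peaks in all, with 3 EpiSC peaks at early genes and 2 EpiSC and 14 DE peaks at mesoderm and posterior genes. Within 25 kb the latter had 3 and 27. Within 100 kb there were 16 EpiSC peaks in all, 9 of them at mesoderm and posterior genes, and 23 DE peaks at early genes. With the authors' nearest gene there were 4 EpiSC and 22 DE peaks, split 2 and 2 in EpiSC and 8 and 14 in DE between early and other genes, and 4 shared sites in either list. With peaks whose nearest protein-coding gene is the member, 28 DE peaks were left, with 2 EpiSC and 17 DE peaks at mesoderm and posterior genes. With the 6319 widest DE peaks there were 11 DE peaks at 5 members, 3 at early and 8 at other genes, and 4 shared sites in either list. Distance to the transcript start left 9 DE peaks at early genes, as Mixl1 had no start in the table. Eomes had the most EpiSC peaks in each setting, level with Sp5 under the authors' nearest gene, and the most DE peaks or as many as Sp5 in each but the list of widest peaks, where Sp5 led with 5 against 3. Read depth, which would limit small counts, is unknown.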

Other observations

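The combination seen at Eomes, at least 5 EpiSC and 9 DE peaks within 50 kb, occurred at 451 of 21887 protein-coding genes (2.06%). The genes most like Eomes over the 2 states were Cyb561d2 and Mex3d, with the same 5 EpiSC, 9 DE and 3 shared EpiSC peaks. A further 47 genes differed by 1 peak in 1 of these counts, and none of them is singled out. The numbers of Mixl1 (0 EpiSC and 6 DE peaks) were shared by 500 other genes, none of which is singled out.

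Over all promoters in the table, TAATC was found before the start in 16.5% of 6027 windows with a DE peak and in 18.0% of 2079 windows with an EpiSC peak, beside 19.8% of all windows. TAATCC was found in 7.2% and 8.23%, beside 6.25%. The search covered the 250 bases before each start and not the peaks themselves, and base composition was not allowed for. These shares therefore do not measure how often bound sites hold either string.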
